A study of Mus musculus with 4 samples.

Results

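Wnt signalling genes were examined in sciatic nerve RNA of 4-month-old C57BL/6 mice. The set holds every gene of the deposited count table whose symbol is Wnt, Fzd, Sfrp, Dkk or Rspo followed by its number, with Lrp5, Lrp6, Wif1, Axin2 and Lef1 added. It has 46 of the 24062 genes in the table: 19 Wnt ligands, 4 R-spondins, 9 secreted antagonists, 10 Frizzled (Fzd) receptors, 2 co-receptors and 2 transcriptional targets. Of these, 35 reached 1 CPM (counts relative to library size, scaled between libraries by the trimmed mean of M-values, TMM) in at least 1 library and are described here. The study has 4 libraries of whole nerve, 1 for each genotype. The WT library came from C57BL/6 mice with neither mutation, and the PKO library from P2RY14-/- mice, which lack the UDP-sugar receptor P2Y14. The NF1 library came from Nf1fl/fl; Dhh Cre mice, in which the RAS regulator neurofibromin is deleted where the Schwann cell lineage driver Dhh-Cre is active, so that other cells of the nerve keep it. The PKO-NF1 library carried both P2RY14-/- and Nf1fl/fl; Dhh Cre. The labels call the NF1 library a repeat and do not give the number of animals behind any library. With 1 library per genotype no difference has a replicate check, and every interval below covers counting error only.

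Wnt proteins are secreted, lipid-modified ligands that bind Fzd receptors together with the co-receptors Lrp5 or Lrp6. In the canonical branch this stabilises beta-catenin, which acts with TCF/LEF factors on target genes such as Axin2, a feedback inhibitor, and Lef1, one of those factors. Secreted Sfrp proteins and Wif1 bind Wnt ligands, Dkk1 and Dkk2 bind the co-receptors, and R-spondins keep Fzd receptors on the cell surface. The pathway is best known in brain and retina vessels, where Wnt7a, Wnt7b and the Fzd4 ligand norrin set up the endothelial barrier. In peripheral nerve it is known for roles in Schwann cell myelination and in nerve sheath tumours.

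The libraries held 14111201 (WT), 20362685 (PKO), 19064779 (NF1) and 17771101 (PKO-NF1) counts, and a gene with 0 counts could lie as high as 0.152 to 0.183 CPM (3 counts). P2ry14 stood at 37.6 and 65.3 CPM in WT and NF1 and at 10.9 and 10.6 CPM in PKO and PKO-NF1. Nf1 stood at 72.8 CPM in WT and 41.0 in PKO, against 63.4 in NF1 and 20.5 in PKO-NF1, and a count over the whole gene in whole nerve does not measure deletion of floxed exons in Schwann cells. All 11 Schwann cell markers were at 1 CPM or more, with a summed level of 21287, 30099, 7642 and 17914 CPM in WT, PKO, NF1 and PKO-NF1. The NF1 library also held skeletal muscle RNA: 15 muscle markers summed to 62441 CPM there and to between 133 and 1069 CPM in the others. Xist, expressed from the inactive X chromosome, stood at 608, 278, 2015 and 0.549 CPM, and the Y-linked Ddx3y at 48.0, 22.3, 0 and 51.4 CPM, so the make-up of the libraries by sex also differed and cannot be told apart from genotype.

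The nerve carried many Wnt genes at low to moderate level. Of the 46, 28 were at 1 CPM or more in all 4 libraries and 11 stayed under 1 CPM in every library. These 11 were Wnt1, Wnt3, Wnt3a, Wnt7a, Wnt8a, Wnt8b, Wnt16, Rspo2, Rspo4, Dkk1 and Dkk4, and 4 of them, Wnt3a, Wnt8b, Dkk1 and Dkk4, had 0 counts in all libraries. Just inside the limit of 1 CPM lay Fzd10, at most 1.01 CPM, and just outside it lay Rspo2, at most 0.793 CPM, and Wnt16, at most 0.761 CPM. Exons of 9 members overlap another gene model, in each case on the opposite strand, and the sources used here do not give the strand setting of the counting. Values of Axin2, Lef1, Wnt11, Wnt5a, Wnt7b, Sfrp2, Rspo3, Fzd5 and Fzd6 are therefore less certain.

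Levels between genes were compared per kilobase of exon, as the mean over the 4 libraries. Sfrp5, a secreted Wnt-binding antagonist, led the set at 310 CPM per kb. It was followed by Sfrp4 at 47.2, Rspo1 at 39.0, Wnt6 at 31.7, Fzd2 at 23.6, Dkk3 at 21.1 and Sfrp2 at 18.6 CPM per kb. Each role was dominated by few genes in all 4 libraries. Sfrp5 made up 70.4% to 79.8% of the secreted antagonists per kb, Wnt6 46.9% to 58.4% of the ligands, and Rspo1 98.4% to 99.2% of the R-spondins. Among the receptors, Fzd2 and Fzd1 held the first and second place in every library, with 35.0% to 43.1% and 20.0% to 33.2% of the Fzd total per kb. Lrp6 held 65.5% to 78.4% of the co-receptor total per kb. The barrier ligands of the brain were scarce: Wnt7a had 1 count in WT and none elsewhere, and Wnt7b did not exceed 2.01 CPM.

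**Figure D1:**
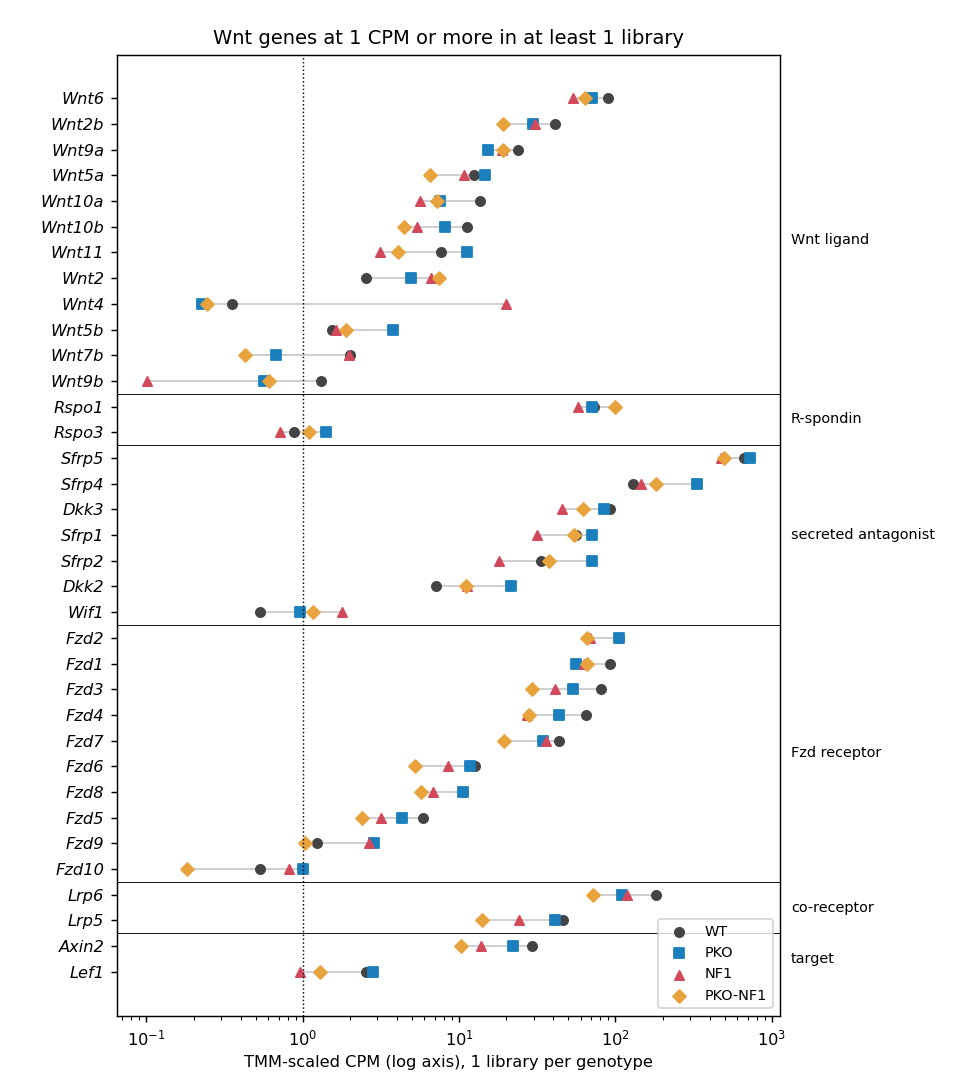
TMM-scaled CPM (log axis) of the 35 Wnt genes at 1 CPM or more, grouped by role, with 1 point per library (WT circle, PKO square, NF1 triangle, PKO-NF1 diamond) and a grey line from the lowest to the highest library. Sfrp5 lies highest, between 471 and 724 CPM, and Wnt4 has the widest span, from 0.225 CPM in PKO to 19.9 CPM in NF1.

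The first question was how Wnt genes differed with Nf1 loss, and it can be asked in 2 pairs that share no library: NF1 against WT, and PKO-NF1 against PKO. Most of the set stood lower in the Nf1-mutant library of each pair. A gene was counted as different when its libraries were at least 2-fold apart and the 95% counting interval of the ratio excluded 1. In NF1 against WT, 8 of 35 members were lower and 4 higher, against 6.31% and 10.4% of all 14700 genes at 1 CPM. In PKO-NF1 against PKO, 8 of 35 were lower and 0 higher, against 9.70% and 5.20% of all genes. The members' median log2 ratio was -0.58 in the first pair and -0.69 in the second, where the median of all genes was -0.00 and -0.01. Ratios below 1 in both pairs were found for 23 of 35 members (65.7%), against 34.5% of all genes. With scaling by total counts only, NF1 against WT gave 13 lower and 3 higher members and PKO-NF1 against PKO 8 and 0, where all genes gave 1580 lower and 1108 higher, and 1203 and 967. In whole-nerve RNA, fewer cells of a type and less RNA per cell cannot be told apart.

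The ratios of all genes also moved with transcript length and GC content, and the members are GC-rich: their longest transcripts had a median GC content of 53.9% (quartiles 48.5% and 56.6%), against 49.7% (44.9% and 54.5%) for all genes. With these trends removed, the members' median log2 ratio was -0.35 in NF1 against WT and -0.41 in PKO-NF1 against PKO, with 6 and 7 members lower and 4 and 0 higher. The 14595 genes with a length and GC value then had medians of -0.01 and -0.06, with 667 lower and 1144 higher in the first pair and 737 lower and 435 higher in the second. Schwann cell and endothelial marker sums were also lower in both pairs, by 2.79-fold and 2.66-fold in NF1 against WT and by 1.68-fold and 1.81-fold in PKO-NF1 against PKO. None of the 11 Schwann cell and 10 endothelial markers was at 0 in these libraries, and their part in the Wnt gene ratios was not tested.

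**Figure D2:**
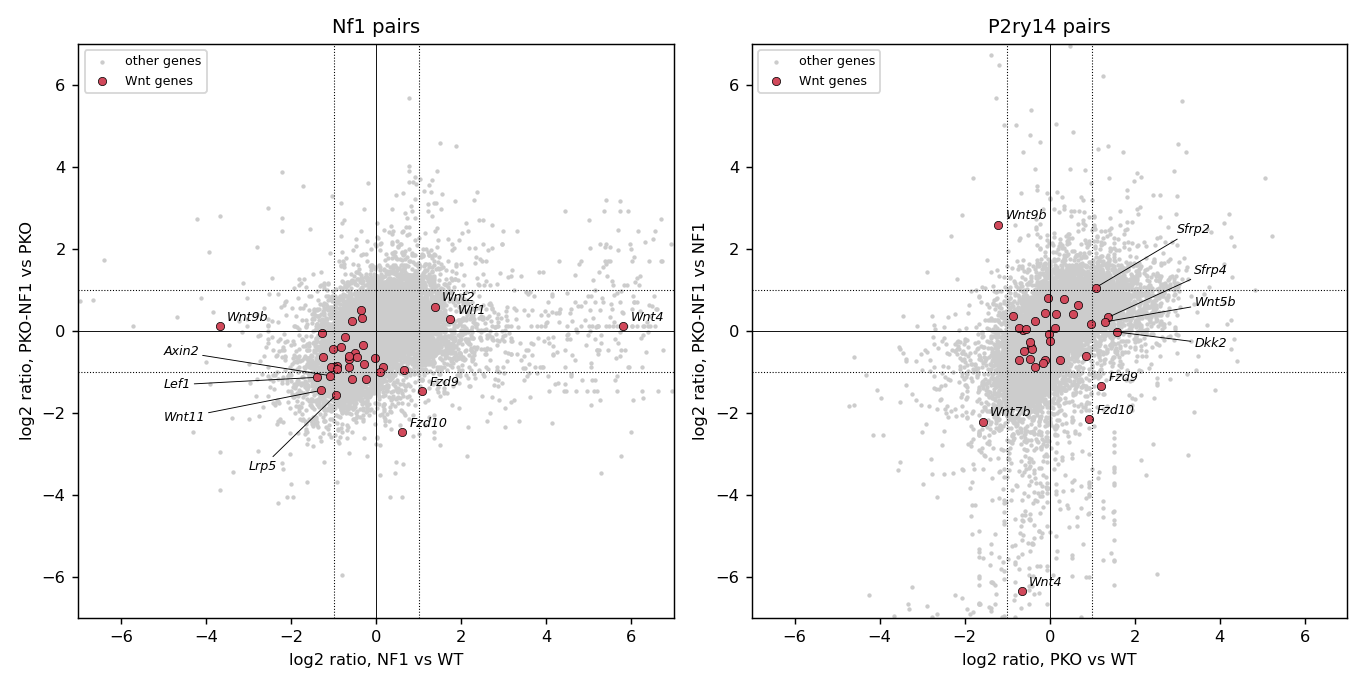
Log2 ratios of TMM-scaled CPM, 1 point per gene at 1 CPM or more with counts in all 4 libraries, for the Nf1 pairs (left: NF1 vs WT across, PKO-NF1 vs PKO up) and the P2ry14 pairs (right: PKO vs WT across, PKO-NF1 vs NF1 up); red points are Wnt genes, dotted lines mark 2-fold, and grey points beyond the axes are not drawn. In the left panel Axin2, Lef1 and Wnt11 lie below 2-fold on both axes, and Wnt4 lies far right at 5.82 across and 0.12 up.

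Lower by at least 2-fold in both Nf1 pairs were 3 of 35 members, the targets Axin2 and Lef1 and the ligand Wnt11, against 2.60% of all genes. Higher in both were 0 members, against 1.29% of all genes. The 250 bases before the RefSeq start of each of the 3 (GRCm38.p6, all on the plus strand, first start listed for each gene) are shown because Axin2 and Lef1 are read-outs of TCF/LEF factors. Capitals mark the TCF/LEF core motif, CTTTG followed by 2 bases that are each A or T, on either strand. The windows lie at chr11:108920099-108920348, chr3:131110047-131110296 and chr7:98834862-98835111.
Axin2: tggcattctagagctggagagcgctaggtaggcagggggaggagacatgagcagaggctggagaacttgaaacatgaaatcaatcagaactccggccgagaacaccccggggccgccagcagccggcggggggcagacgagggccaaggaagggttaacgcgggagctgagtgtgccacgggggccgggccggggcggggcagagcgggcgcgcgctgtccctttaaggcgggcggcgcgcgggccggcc
Lef1: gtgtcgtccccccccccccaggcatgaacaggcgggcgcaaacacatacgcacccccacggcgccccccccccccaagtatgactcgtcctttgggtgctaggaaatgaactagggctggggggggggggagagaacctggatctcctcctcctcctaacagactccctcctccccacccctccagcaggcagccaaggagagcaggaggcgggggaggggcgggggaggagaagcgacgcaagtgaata
Wnt11: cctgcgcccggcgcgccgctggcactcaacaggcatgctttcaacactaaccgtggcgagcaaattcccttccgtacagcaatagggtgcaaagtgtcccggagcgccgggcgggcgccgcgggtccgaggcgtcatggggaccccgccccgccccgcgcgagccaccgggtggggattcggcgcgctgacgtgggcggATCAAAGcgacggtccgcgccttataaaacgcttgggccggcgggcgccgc
Only Wnt11 has the motif among these windows, on the minus strand as ATCAAAG starting 51 bases before the start of the gene. Over 300-base windows (250 before to 50 after a start), the motif was present in 16.9% of all 32851 promoters in the table and in 4 of 28 promoters (14.3%) of the 22 described members with an entry: those of Fzd7, Wnt5b, Wnt11 and the fourth one listed for Lef1. These promoters were GC-rich, with a median of 67.3% against 52.7% for all. A motif match is a description of the letters in the window, and its absence says nothing of binding elsewhere.

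Axin2 (ENSMUSG00000000142, chr11:108920349-108950783), the feedback inhibitor that scaffolds beta-catenin destruction, stood at 29.4 CPM in WT and 22.0 in PKO, against 13.9 in NF1 and 10.3 in PKO-NF1. Both Nf1-mutant libraries lay below both others. The ratio was 2.11-fold lower in NF1 relative to WT (interval 1.82 to 2.46) and also lower, 2.13-fold, in PKO-NF1 relative to PKO (1.78 to 2.57). With length and GC trends removed, the log2 ratios were -0.66 and -0.69, under 2-fold in both pairs. Lef1 (ENSMUSG00000027985, chr3:131110471-131224356), itself a TCF/LEF factor, was scarce, at 2.54 CPM in WT and 2.81 in PKO, against 0.964 in NF1 and 1.28 in PKO-NF1, from 19 to 50 counts. It too was lower in both Nf1-mutant libraries, 2.63-fold (1.5 to 4.78) and 2.19-fold (1.29 to 3.85). With the trends removed its log2 ratios were -1.44 and -1.39, and it was then the only member past 2-fold in both pairs.

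Of the 12 ligands, 4 were lower and 2 higher in NF1 relative to WT, against 6.31% and 10.4% of all genes. In PKO-NF1 relative to PKO 2 were lower and 0 higher, against 9.70% and 5.20%. Wnt11 (ENSMUSG00000015957, chr7:98835112-98855195), whose promoter is printed above and which is known for the non-canonical branch, stood at 7.61 CPM in WT and 11.2 in PKO, against 3.10 in NF1 and 4.09 in PKO-NF1. It was 2.46-fold lower in NF1 relative to WT (1.80 to 3.39) and also lower, 2.74-fold, in PKO-NF1 relative to PKO (2.07 to 3.67), and with the trends removed the log2 ratios were -0.89 and -1.10. Wnt10a, a canonical ligand, stood at 13.6, 7.53, 5.63 and 7.26 CPM in WT, PKO, NF1 and PKO-NF1. WT stood apart as high: the gene was 2.42-fold lower in NF1 relative to WT (1.92 to 3.06; log2 ratio -0.89 with the trends removed), while PKO-NF1 and PKO were 1.04-fold apart (interval 0.805 to 1.34). Its paralogue Wnt10b stood at 11.3, 8.15, 5.38 and 4.45 CPM, 2.10-fold lower in NF1 relative to WT (1.64 to 2.68) and also lower, 1.83-fold, in PKO-NF1 relative to PKO (1.37 to 2.46).

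Wnt5a, the best known ligand of the non-canonical branch, stood at 12.5, 14.7, 10.7 and 6.53 CPM in WT, PKO, NF1 and PKO-NF1. PKO-NF1 was the low library, 2.26-fold below PKO (1.80 to 2.85; log2 ratio -0.95 with the trends removed), and NF1 and WT were 1.17-fold apart (0.965 to 1.43). Wnt2 went the other way, at 2.54 CPM in WT and 4.95 in PKO, against 6.60 in NF1 and 7.44 in PKO-NF1. It was 2.60-fold higher in NF1 relative to WT (1.83 to 3.76) and 1.5-fold higher in PKO-NF1 relative to PKO (1.13 to 2.0). Wnt9b was near the limit of counting, at 1.30, 0.562, 0.101 and 0.610 CPM, and its 12.8-fold lower value in NF1 relative to WT rests on 2 counts in NF1 (interval 3.14 to 112).

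The more abundant ligands differed less. Wnt6, the leading ligand, stood at 89.5 CPM in WT and 70.8 in PKO, against 53.9 in NF1 and 63.5 in PKO-NF1, so that both Nf1-mutant libraries lay below both others. The ratio was 1.66-fold lower in NF1 relative to WT (1.53 to 1.80) and also lower, 1.12-fold, in PKO-NF1 relative to PKO (1.03 to 1.21), where it was 0.20 on the log2 scale with the trends removed. Wnt2b stood at 41.3, 29.9, 30.5 and 19.0 CPM in WT, PKO, NF1 and PKO-NF1, and Wnt9a at 23.9, 15.3, 18.9 and 19.0 CPM. Wnt2b was highest in WT and lowest in PKO-NF1, and Wnt9a was highest in WT and lowest in PKO.

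Wnt4 (ENSMUSG00000036856, chr4:137277489-137299726) was the member with the widest difference. It stood at 19.9 CPM in NF1, from 393 counts, and elsewhere at 0.354 (WT), 0.225 (PKO) and 0.244 CPM (PKO-NF1), from 6, 4 and 4 counts. NF1 was 56.3-fold above WT (25.6 to 154) and PKO-NF1 was 81.7-fold below NF1 (31.7 to 301), while PKO-NF1 and PKO were 1.09-fold apart (0.202 to 5.83). In the NF1 library Wnt4 made up 9.07% of the ligands per kb, against 0.0924% to 0.117% in the others. The summed level of 15 skeletal muscle markers moved with it, at 1069, 133, 62441 and 317 CPM in WT, PKO, NF1 and PKO-NF1, with none of the markers at 0 counts. Per 1000 CPM of those markers, Wnt4 came to 0.331, 1.69, 0.319 and 0.771 CPM, values that outside NF1 rest on the 6, 4 and 4 counts above. The part of muscle RNA in the Wnt4 level was not tested.

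**Figure D3:**
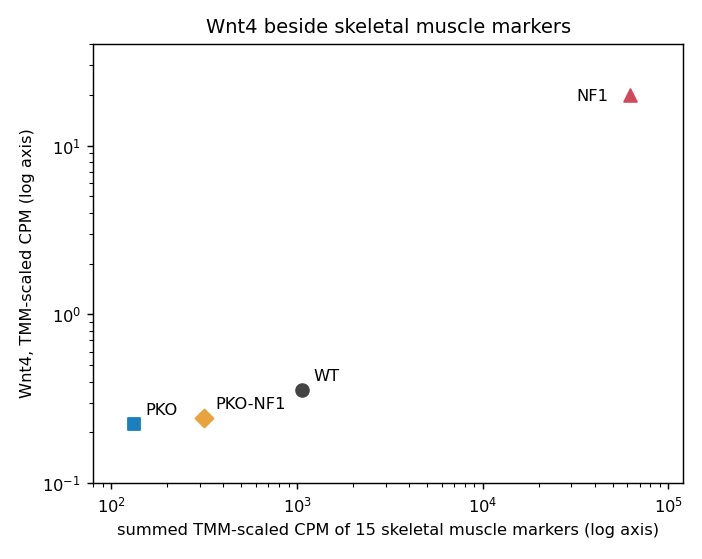
Wnt4 (TMM-scaled CPM, log axis) against the summed TMM-scaled CPM of 15 skeletal muscle markers (log axis), 1 point per library. The NF1 library lies alone at 62441 CPM of muscle markers and 19.9 CPM of Wnt4, and the other libraries lie at or below 1069 and 0.354 CPM.

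R-spondins differed by less than 2-fold in both Nf1 pairs. Rspo1, which amplifies Wnt signals through Lgr receptors, stood at 73.4, 70.8, 57.6 and 100 CPM in WT, PKO, NF1 and PKO-NF1. It was 1.27-fold lower in NF1 relative to WT (1.18 to 1.38) and 1.42-fold higher in PKO-NF1 relative to PKO (1.32 to 1.53), so the pairs went opposite ways. Rspo3 stayed between 0.710 and 1.41 CPM.

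Among the 7 secreted antagonists, 1 was higher and 1 lower in NF1 relative to WT, against 10.4% and 6.31% of all genes. In PKO-NF1 against PKO 0 passed 2-fold, where 9.70% of all genes were lower and 5.20% higher. With the trends removed Sfrp4 and Dkk2 did pass 2-fold in PKO-NF1 against PKO, at log2 ratios of -1.15 and -1.22. Their CPM were 1.83-fold (1.75 to 1.91) and 1.93-fold lower (1.62 to 2.32). In NF1 against WT both went the other way, 1.12-fold (1.06 to 1.18) and 1.58-fold higher (1.26 to 1.99). Sfrp5 stood at 666 CPM in WT and 724 in PKO, against 471 in NF1 and 497 in PKO-NF1, lower in both Nf1-mutant libraries by 1.42-fold (1.38 to 1.45) and 1.46-fold (1.42 to 1.5). Dkk3, a divergent Dkk family member, stood at 91.6, 84.8, 45.6 and 62.1 CPM and was 2.01-fold lower in NF1 relative to WT (1.85 to 2.18; log2 ratio -0.85 with the trends removed; under 2-fold also with DESeq2 size factors). Both Nf1-mutant libraries were low for both genes.

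Sfrp1 stood at 56.3, 70.9, 31.7 and 54.1 CPM in WT, PKO, NF1 and PKO-NF1, lower by 1.77-fold (1.60 to 1.97) and 1.31-fold (1.20 to 1.43) in the Nf1 pairs. Wif1, which binds Wnt ligands outside the cell, was the antagonist past 2-fold higher in NF1 relative to WT. It stood at 0.531, 0.956, 1.78 and 1.16 CPM, with NF1 3.34-fold above WT (1.58 to 7.91, from 35 and 9 counts). PKO-NF1 and PKO were 1.21-fold apart (0.597 to 2.48, from 19 and 17 counts). The values of both Nf1-mutant libraries lay below both others for Sfrp1 and above both others for Wif1. With length and GC trends removed neither gene kept this order.

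Among all 14700 genes, 7360 had a ratio below 1 in NF1 against WT and 7379 in PKO-NF1 against PKO. Of the 10 Fzd receptors, 8 and 9 did. Their median log2 ratios were -0.60 and -0.87, and -0.23 and -0.42 with the trends removed. Fzd4, the receptor for norrin and a barrier receptor of brain endothelium, stood at 64.7 CPM in WT and 43.7 in PKO, against 27.0 in NF1 and 28.1 in PKO-NF1. Both Nf1-mutant libraries were low, by 2.39-fold in NF1 against WT (2.15 to 2.66) and 1.55-fold in PKO-NF1 against PKO (1.38 to 1.75), and the first stayed past 2-fold with the trends removed (log2 ratio -1.08). The summed level of 10 endothelial markers stood at 692, 811, 260 and 448 CPM in WT, PKO, NF1 and PKO-NF1, also lower in both Nf1 pairs. In PKO against WT the sum was 1.17-fold higher, where Fzd4 was 1.48-fold lower (1.35 to 1.63). In PKO-NF1 against NF1 the sum was 1.72-fold higher, where Fzd4 was 1.04-fold apart (0.916 to 1.18). The part of endothelial cells in the Fzd4 ratio was not tested.

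Fzd3, a receptor of the planar polarity branch, stood at 81.2, 53.7, 40.9 and 29.1 CPM in WT, PKO, NF1 and PKO-NF1, lower by 1.99-fold (1.82 to 2.17) and 1.85-fold (1.65 to 2.07) in the Nf1 pairs. Fzd6, of the same branch, stood at 12.6, 11.8, 8.47 and 5.19 CPM and was 2.27-fold lower in PKO-NF1 relative to PKO (1.75 to 2.95). For both receptors the Nf1-mutant libraries were the lowest pair. Fzd2, the leading receptor, stood at 106, 105, 68.7 and 65.5 CPM, lower by 1.55-fold (1.44 to 1.66) and 1.61-fold (1.49 to 1.73). Fzd8 stood at 10.6, 10.6, 6.80 and 5.74 CPM and Fzd5 at 5.90, 4.33, 3.15 and 2.38 CPM. These 3 also had both Nf1-mutant libraries below both others.

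Fzd1 and Fzd7 did not follow that order. Fzd1 stood at 92.9 CPM in WT and 55.9 in PKO, against 62.9 in NF1 and 65.9 in PKO-NF1, with WT alone high. Fzd7 stood at 43.4, 34.3, 35.7 and 19.5 CPM, with PKO-NF1 alone low. The scarce Fzd9 and Fzd10 were highest in PKO and NF1. Fzd9 stood at 1.24, 2.87, 2.64 and 1.04 CPM in WT, PKO, NF1 and PKO-NF1, so that it was 2.13-fold higher in NF1 relative to WT (1.26 to 3.72; log2 ratio 0.87, under 2-fold, with total counts only) and also lower, 2.76-fold, in PKO-NF1 relative to PKO (1.57 to 5.11). Fzd10, at 0.531, 1.01, 0.812 and 0.183 CPM, was 5.53-fold lower in PKO-NF1 relative to PKO (1.61 to 29.3), a ratio that rests on 3 counts in PKO-NF1.

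The co-receptors stood lower in both Nf1 pairs. Lrp6 stood at 182 CPM in WT and 110 in PKO, against 118 in NF1 and 71.6 in PKO-NF1, and Lrp5 at 46.1, 41.3, 24.2 and 14 CPM. Lrp6 was 1.54-fold lower in each pair (1.46 to 1.63 and 1.43 to 1.66). Lrp5 was 1.91-fold lower in NF1 relative to WT (1.70 to 2.14) and also lower, 2.94-fold, in PKO-NF1 relative to PKO (2.54 to 3.43). With the trends removed the Lrp5 log2 ratios were -0.35 and -0.70, so that the difference between PKO-NF1 and PKO was then under 2-fold.

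Both Nf1-mutant libraries lay below both others for 17 of 35 members (48.6%), against 20.5% of all genes, and above both others for 2 members (Wif1 and Wnt2), against 19.8%. The 17 were Wnt5a, Wnt6, Wnt10a, Wnt10b, Wnt11, Sfrp1, Sfrp5, Dkk3, Fzd2, Fzd3, Fzd4, Fzd5, Fzd6, Fzd8, Lrp5, Axin2 and Lef1. With length and GC trends removed, 16 members lay below, against 20.3% of all genes, and 13 of them were the same genes. Wnt2 and Wnt4 then lay above both others, against 13.5% of all genes. Fzd receptors made up 6 of the 17 and 5 of the 16.

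**Figure D4:**
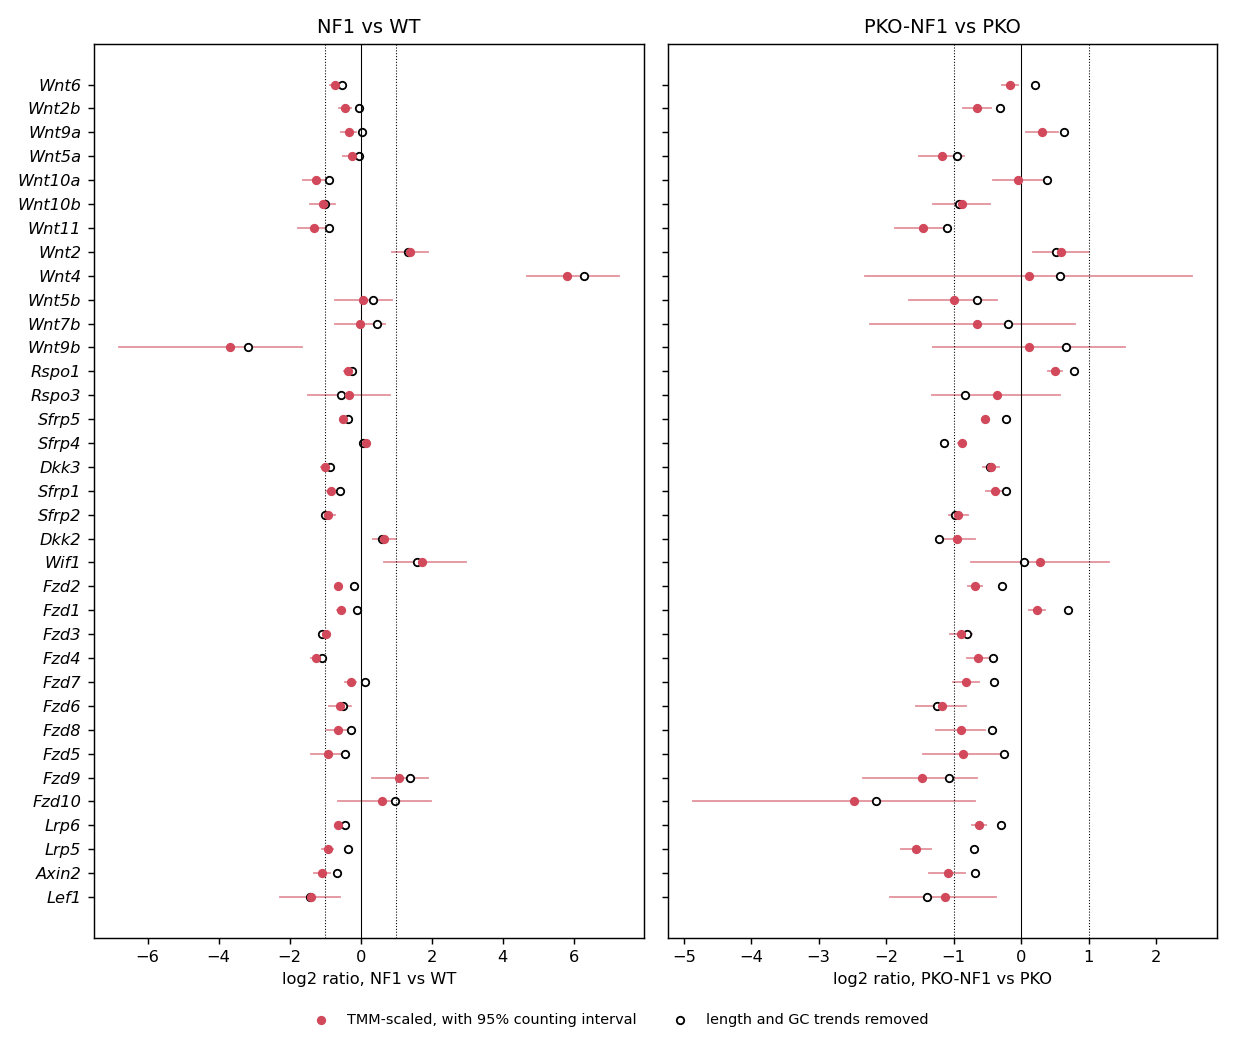
Log2 ratios of the 35 Wnt genes in NF1 vs WT (left) and PKO-NF1 vs PKO (right), with filled red points for TMM-scaled CPM, red bars for the 95% counting interval and open points for the ratio with length and GC trends removed; dotted lines mark 2-fold and the panels have different axis ranges. Most filled points lie left of 0 and most open points lie to their right, as for Lrp5 in the right panel (-1.56 and -0.70), while Lef1 lies past 2-fold on both measures in both panels.

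The second question was how Wnt genes differed with P2ry14 loss, in PKO against WT and in PKO-NF1 against NF1, which also share no library. These pairs are made from the same 4 libraries as the Nf1 pairs and are not independent of them. The secreted antagonists Sfrp4, Sfrp2 and Dkk2 were higher in PKO relative to WT. Ratios below 1 were held by 8 of 12 ligands and 7 of 10 Fzd receptors, and by 8182 of all 14700 genes. In PKO against WT, 5 of 35 members were higher and 2 lower, against 10.0% and 5.22% of all genes. In PKO-NF1 against NF1, 2 were higher and 4 lower, against 7.90% and 13.8% of all genes. The median log2 ratios of the members were -0.10 and -0.03, where those of all genes were -0.08 and -0.01. With scaling by total counts only, PKO against WT gave 1 higher and 8 lower members, and PKO-NF1 against NF1 gave 1 and 5. All 14700 genes then gave 762 higher and 2713 lower in the former, and 765 and 2628 in the latter.

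Sfrp4 (ENSMUSG00000021319, chr13:19623104-19632994) stood at 129 CPM in WT and 333 in PKO, against 145 in NF1 and 182 in PKO-NF1. PKO was alone high, 2.57-fold above WT (2.45 to 2.70), and PKO-NF1 was 1.25-fold above NF1 (1.19 to 1.32). Sfrp2 (ENSMUSG00000027996, chr3:83766321-83774316) stood at 33.6 CPM in WT and 71.2 in PKO, against 17.9 in NF1 and 37.3 in PKO-NF1. It was higher in both P2ry14-mutant libraries, 2.12-fold in PKO against WT (1.92 to 2.34) and 2.08-fold in PKO-NF1 against NF1 (1.82 to 2.38), and lower in both Nf1-mutant libraries, by 1.88-fold (1.64 to 2.15) and 1.91-fold (1.73 to 2.11). Both P2ry14 ratios of Sfrp2 were under 2-fold with the trends removed (log2 0.65 and 0.81) and with total counts only (0.62 and 0.89), where the Sfrp4 ratio in PKO against WT was 0.90.

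Dkk2, an antagonist that binds the co-receptors, stood at 7.14, 21.5, 11.3 and 11.1 CPM in WT, PKO, NF1 and PKO-NF1. As with Sfrp4, PKO was alone high, 3.01-fold above WT (2.45 to 3.72), and PKO-NF1 and NF1 were 1.02-fold apart (0.834 to 1.25). Sums of 10 fibroblast markers (8930, 13371, 8567 and 15137 CPM) and 10 adipocyte markers (6610, 18129, 3697 and 13161 CPM) were also higher in both P2ry14-mutant libraries, with none of the markers at 0, and their part in the Sfrp and Dkk2 ratios was not tested.

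Wnt7b (ENSMUSG00000022382, chr15:85535437-85582473), a barrier ligand of the brain, stood at 2.01 CPM in WT and 0.675 in PKO, against 1.98 in NF1 and 0.427 in PKO-NF1, from 34, 12, 39 and 7 counts. Both P2ry14-mutant libraries were low, by 2.97-fold in PKO against WT (1.5 to 6.31) and 4.63-fold in PKO-NF1 against NF1 (2.05 to 12.3). It stayed past 2-fold in both with the trends removed, at log2 ratios of -1.34 and -1.86. Wnt7b was the 1 member lower in both P2ry14 pairs and Sfrp2 the 1 member higher in both, against 2.85% and 2.97% of all genes.

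Wnt5b stood at 1.53, 3.77, 1.62 and 1.89 CPM in WT, PKO, NF1 and PKO-NF1, with PKO 2.46-fold above WT (1.54 to 4.02; log2 ratio 0.84, under 2-fold, with total counts only). The scarce Wnt9b and Fzd9 went opposite ways in the P2ry14 pairs. Wnt9b was 2.31-fold lower in PKO relative to WT (1.05 to 5.46; log2 ratio -0.95, under 2-fold, with the trends removed) and 6.01-fold higher in PKO-NF1 relative to NF1 (1.28 to 56.4). Fzd9 was 2.31-fold higher in PKO relative to WT (1.37 to 4.05; log2 ratio 0.75 with total counts only), and lower by 2.54-fold in PKO-NF1 relative to NF1 (1.45 to 4.69). Fzd10 was 4.44-fold lower in PKO-NF1 relative to NF1 (1.27 to 23.8), from 3 and 16 counts.

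Both P2ry14-mutant libraries lay above both others for 4 of 35 members, Sfrp2, Sfrp4, Rspo3 and Wnt5b, against 23.4% of all genes. They lay below both others for 5 members, Fzd7, Lrp6, Wnt2b, Wnt4 and Wnt7b, against 24.4%. These shares of the members, 11.4% and 14.3%, were under those of all genes.

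An additive model over the 4 libraries, with a term for each mutation, leaves 1 residual degree of freedom, so that its p-values measure a term against the interaction of both mutations, never against animal-to-animal variation. By edgeR's quasi-likelihood test with Benjamini-Hochberg adjustment over 14105 genes, 0 of the 32 members tested passed an adjusted p of 0.05 for either term, and 0% and 0.0496% of all genes did for the Nf1 and the P2ry14 term. At an unadjusted p under 0.05 the Nf1 term held 15 of 32 members, 14 of them lower and Wnt2 higher, against 20.9% of all genes. The P2ry14 term held 5 of 32, 4 lower and 1 higher, against 25.2%. The DESeq2 Wald test also gave 0 members for either term. For Nf1 the smallest adjusted p among members (edgeR adjusted p = 0.170) was shared by Axin2, Lrp5, Fzd3, Wnt11 and Sfrp2, with log2 differences of -1.08, -1.24, -0.93, -1.37 and -0.92, each lower in 2 of 2 pairs. For P2ry14 the smallest (edgeR adjusted p = 0.144) was shared by Sfrp2 (1.07, higher in 2 of 2 pairs) and Wnt7b (-1.86, lower in 2 of 2 pairs).

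Other genes of the pathway, from lists covering ligand handling to nuclear factors, gave 106 genes at 1 CPM. Of these, 10 were lower and 3 higher in NF1 relative to WT, against 6.31% and 10.4% of all genes, and 22 lower and 3 higher in PKO-NF1 relative to PKO, against 9.70% and 5.20%. Their median log2 ratios of -0.33 and -0.39 came to -0.14 and -0.08 with the trends removed. The counts were then 5 lower and 5 higher, and 12 lower and 4 higher. All 14700 genes then gave 667 lower and 1144 higher, and 737 lower and 435 higher. In PKO against WT 6 were lower and 1 higher, against 5.22% and 10.0% of all genes, and in PKO-NF1 against NF1 22 lower and 4 higher, against 13.8% and 7.90%. The medians of these pairs were -0.30 and -0.33, and with the trends removed -0.14 and -0.04. The counts were then 7 lower and 1 higher, and 7 lower and 4 higher. All 14700 genes then gave 811 lower and 789 higher in PKO against WT. In PKO-NF1 against NF1 they gave 1508 lower and 835 higher. Lgr5, Apc2, Bcl9l, Tcf7l1, Celsr1 and Celsr2 were at least 2-fold lower in both Nf1 pairs, as were 2.60% of all genes. With the trends removed, of these only Lgr5 stayed past 2-fold in both pairs (log2 ratios of -1.62 and -1.16), and Celsr1 came to 0.04 in PKO-NF1 against PKO.

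Ctnnb1, which encodes beta-catenin, stood at 552 CPM in WT and 505 in PKO, against 355 in NF1 and 443 in PKO-NF1, 1.55-fold lower in NF1 relative to WT (1.51 to 1.60) and also lower, 1.14-fold, in PKO-NF1 relative to PKO (1.11 to 1.18). Among the nuclear factors, Tcf7l1, a TCF/LEF family member, stood at 28.2, 28.2, 11.3 and 11.2 CPM, and Bcl9l, a beta-catenin co-activator, at 65.1, 44.6, 24.3 and 13.5 CPM. Tcf7l1 was lower by 2.49-fold (2.12 to 2.94) and 2.51-fold (2.12 to 2.99) in the Nf1 pairs. Both genes were low in both Nf1-mutant libraries, as Axin2 was. With the trends removed the log2 ratios were -0.90 and -0.93 for Tcf7l1 and -0.70 and -0.75 for Bcl9l, under 2-fold in both pairs, also as for Axin2.

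Lgr5, a receptor for R-spondins that is also a Wnt target, stood at 2.48, 3.37, 0.812 and 1.65 CPM in WT, PKO, NF1 and PKO-NF1, 3.05-fold lower in NF1 relative to WT (1.68 to 5.82) and also lower, 2.05-fold, in PKO-NF1 relative to PKO (1.28 to 3.36). The commonly used targets, Lgr5 included, did not share a direction. Of 15 at 1 CPM, 2 (Apcdd1 and Lgr5) were lower and 1 higher in NF1 relative to WT, against 6.31% and 10.4% of all genes. In PKO-NF1 relative to PKO 5 were lower and 2 higher, against 9.70% and 5.20%. Ccnd1, which encodes cyclin D1, stood at 366, 172, 280 and 349 CPM, with PKO alone low, so that it was 2.03-fold higher in PKO-NF1 relative to PKO (1.94 to 2.12) and 1.31-fold lower in NF1 relative to WT (1.26 to 1.36). Apcdd1, a membrane antagonist and target, stood at 54.3, 52.4, 18.0 and 32.9 CPM and was 3.02-fold lower in NF1 relative to WT (2.67 to 3.43).

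Frzb, a secreted antagonist of the Sfrp family left out by the symbol rule, stood at 34.4, 44.2, 20.2 and 11.4 CPM in WT, PKO, NF1 and PKO-NF1. It was 3.87-fold lower in PKO-NF1 relative to PKO (3.30 to 4.57). Ndp, which encodes norrin, stood at 9.74, 10.6, 6.39 and 16.9 CPM, so that this Fzd4 ligand was 1.52-fold lower in NF1 relative to WT (1.20 to 1.94) and 1.60-fold higher in PKO-NF1 relative to PKO (1.32 to 1.93). In the planar polarity branch, Celsr2 stood at 47.1, 30.7, 16.6 and 6.35 CPM and was lower by 2.83-fold (2.49 to 3.23) and 4.84-fold (3.92 to 6.03) in the Nf1 pairs, with log2 ratios of -0.77 and -1.18 once the trends were removed, the first of them under 2-fold. Camk2a, a calcium-dependent kinase, stood at 3.66, 2.19, 69.3 and 1.53 CPM, with the NF1 library alone high, as for Wnt4. Skeletal muscle markers summed to 62441 CPM in that library against 1069 in WT, and their part in the Camk2a level was not tested.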

How the data were processed

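RNA of mouse sciatic nerve was measured in 4 libraries, 1 per genotype. The authors deposited raw counts per gene symbol in a single table. Per the submitters' processing notes, the tools were HISAT2 2.0.5 and featureCounts 1.5.2 on mm10, with FastQC 0.11.7. The sources used here give no strand setting, annotation or handling of multiply mapped reads. All 4 columns were mapped by title to samples.

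Scaling to CPM used TMM factors from edgeR 4.0.16 (R 4.3.3), and genes that reached 1 CPM in any library were kept. Ratios of 2 libraries have exact conditional (Clopper-Pearson) 95% intervals, which cover counting error only, since PCR copies cannot be told from separate molecules. The additive edgeR model (glmQLFit, glmQLFTest) used genes at 1 CPM in at least 2 libraries. Its common biological coefficient of variation was 0.271. Length and GC trends were splines with 4 degrees of freedom, fitted per comparison, or per library for the order of the 4 libraries, on genes outside the muscle and adipocyte markers. Gene models were GENCODE M21 on GRCm38 (98.3% of symbols matched), and promoters came from RefSeq. The 2-fold rule and the additive model were tried on simulated counts with less spread than the model found here. The trend, library order and promoter steps were not. Alternatives were size factors of DESeq2 1.42.0, total counts only, a 5 CPM filter or none, trends removed, scaling without muscle genes, and for the model the DESeq2 Wald test and single terms.

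Values in every library are given for members that reached 5 CPM or were 2-fold apart in a comparison, and pathway genes were named by size of change and abundance. The members and lists were chosen with earlier results of these data known.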

Additional observations from a re-analysis of the deposited data

Results flagged for a closer look

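Fzd9 went opposite ways in the 2 Nf1 pairs, higher in NF1 than in WT and lower in PKO-NF1 than in PKO, each by at least 2-fold with TMM scaling. With total counts only, the log2 ratios of its higher values were 0.87 in NF1 against WT and 0.75 in PKO against WT, under 2-fold. The log2 ratio of the second pair less that of the first was -2.56. In the P2ry14 pairs, which use the same 4 libraries, Fzd9 also went opposite ways, with the same difference of -2.56. Wnt9b went opposite ways in the P2ry14 pairs, with a difference of 3.80 on the log2 scale, from 22 counts in WT and 10 in PKO, against 2 in NF1 and 10 in PKO-NF1. With 1 library per genotype these differences between pairs were not tested.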

How the results depend on the processing

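Each count of members in a comparison was recomputed under the alternatives, and 54 such values stayed within 1.5 times the reported count while 14 moved further. Scaling by total counts only moved the median log2 ratio of all genes to -0.22 in NF1 against WT and 0.07 in PKO-NF1 against PKO. In PKO against WT the median came to -0.54, and in PKO-NF1 against NF1 to -0.17. Of all genes past 2-fold, the share that was higher was 62.3%, 34.9%, 65.7% and 36.4% in these comparisons with TMM. With total counts only it was 41.2%, 44.6%, 21.9% and 22.5%. Under that scaling 13 members were lower in NF1 relative to WT, against 1580 of all genes. In PKO relative to WT 1 was higher and 8 lower, against 762 and 2713 genes. In PKO-NF1 relative to NF1 1 was higher, against 765 genes. Both P2ry14-mutant libraries lay above both others for 1 member, against 11.8% of all genes. A filter of 5 CPM left 27 members. Of these, 2 were higher in NF1 relative to WT, where all genes at 5 CPM gave 1162. In PKO-NF1 relative to PKO 5 were lower, where all genes at 5 CPM gave 1136. In PKO relative to WT 3 were higher and 0 lower, where those genes gave 1174 and 521. In PKO-NF1 relative to NF1 1 was higher and 1 lower, where they gave 873 and 1562. With length and GC trends removed, 1 member was lower in PKO relative to WT, against 811 of all genes. In PKO-NF1 relative to NF1 1 was then higher, against 835 genes. Both P2ry14-mutant libraries lay below both others for 3 members, against 23.2% of all genes. The share of all genes past 2-fold that was higher in PKO relative to WT was then 49.3%. Except where fewer genes were tested, the cause was not tested. Of the values for single members under the alternatives, 165 stayed past 2-fold, 18 did not and 0 changed direction. The 165 include the filter settings, which cannot change the ratio of a single member. For the model, the P2ry14 term called 7 genes with edgeR, 108 without the filter, 724 with the DESeq2 Wald test and 0 with that term alone, and the Nf1 term 0, 46, 284 and 0, with 0 members in each. The alternatives for groups that do not overlap were chosen after seeing the data. No paired analysis was possible because each genotype has 1 library and no replicate numbers to pair; the additive model compares each mutation within the status of the other. At this depth, members under 1 CPM rest on at most 15 counts in a library and were not compared.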
